A study of Mus musculus with 8 samples.

Results

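Gene expression in C2C12 cells after 14 h in medium conditioned by CAPAN-1 cells was compared with that after 14 h in control medium. C2C12 is a mouse myoblast line, and CAPAN-1 is a human pancreatic cancer line. The comparison rests on the 2 arrays that the labels title as conditioned (MBC) against control (MBN) at 14 h, of 8 arrays in the series. The other 6 arrays compare conditioned with control medium at 24 h, and conditioned medium at 14 h or 24 h with control medium at 0 h. The labels name no genetic change in the cells, and their growth medium was DMEM with 2 mM glutamine and 10% fetal bovine serum. The conditioned group (MBC14) and the control group (MBN14) each gave 1 RNA, which was labelled with Cy3 on one array and with Cy5 on the other. Array A holds the conditioned RNA in Cy5 and array B holds it in Cy3. From each sample 15 ug of total RNA was labelled. The spotted array is named as a human muscle array in the labels, so mouse RNA was bound to probes annotated with human genes. Gene symbols below are therefore the human ones. As the RNA came from whole cultures, fewer cells of one kind and less RNA per cell cannot be told apart.

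Muscle wasting in cancer, or cachexia, is the loss of muscle mass driven in part by factors that tumours and the host release. In muscle fibres such factors are known to act through NF-kB, through the SMAD proteins that carry signals of the TGF-beta family, and through lowered insulin and IGF signalling, which lets FOXO factors switch on ubiquitin ligases such as MuRF1 (TRIM63) and atrogin-1 (FBXO32). Myoblasts are the dividing precursors of these fibres, and when they differentiate they switch on the sarcomere genes.

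Each array gave 1 signed score per spot for 9984 spots. The scale of the scores, their log base and their direction are not given in the sources used here, so values are in score units and no fold changes are given. On array A the scores had an SD of 1.58 and lay between -10.5 and 12.1. On array B the SD was 1.34 and the range -13.1 to 7.73, while the SDs of all 8 arrays lay between 1.34 and 1.58. Each array was centred on its median, and spots listing 1 gene were averaged to 2922 genes, of which 2641 had the 2 adjacent spots of 1 probe.

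The arrays can be read in 2 ways, and the labels do not settle which is right. If the scores are Cy5 over Cy3, array B has to be turned in sign. If the depositors had already turned it, both arrays stay as deposited. Across the 2922 genes the arrays correlated at -0.32 as deposited and at 0.32 with array B turned. These genes share 2 arrays and 2 RNAs and are not replicates. The turned reading is given first throughout. A positive score is read as higher in conditioned medium, which is likely from the Test and Reference entries of the labels. If the ratio ran the other way, every sign would turn.

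With 1 RNA pair on a pair of dye-swapped arrays there is 1 replicate, so no test was possible and no p-value is given. Errors are the SD over 2 arrays (n = 2), which is technical. The size rule asks for a mean over both arrays of 1 score unit or more in size, with 0.5 or more on either array on that side of 0. In the turned reading 581 of 2922 genes passed (19.9%), 266 higher (9.1%) and 315 lower (10.8%). Read as deposited, 186 passed (6.37%), 104 higher (3.56%) and 82 lower (2.81%). No gene can pass in both readings, as turning array B moves it to the other side of 0. Both arrays lay on one side of 0 for 1702 genes in the turned reading and for 1220 as deposited. A further 161 genes had a mean of at least 1 in size but missed the rule on one array. Just inside the threshold lay the slow troponin I gene TNNI1 (1.002, with 0.53 on array A and 1.47 on array B) and the RNA-binding protein gene RBM10 (-1.003). Just outside lay the antiproliferative gene BTG1 (-0.998) and the RNA-binding protein gene EWSR1 (-0.997).

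How far a score belongs to a gene, and not to a probe, was examined before any gene was described. The 2 adjacent spots of one probe correlated at 0.53 on array A, 0.67 on array B and 0.68 in the turned mean, over 4992 probes. Neighbouring probes of the array, which mostly list different genes, correlated at 0.26 on each array and at 0.35 in the turned mean (n = 4991 pairs). As deposited, these values for the mean were 0.42 for adjacent spots and 0.06 for neighbouring probes. For 281 genes with more than 1 probe, the first and the second probe correlated at -0.04 in the turned mean, 0.04 as deposited, 0.02 on array A and -0.06 on array B. In the turned reading the first probe at 14 h correlated at 0.55 with that same probe at 24 h, whose RNAs are all different. With the gene's second probe at 24 h it correlated at 0.06. Thus in the turned reading a probe gave similar scores in separate RNA pairs, while separate probes annotated to one gene did not share their scores. As deposited, the gene means at 14 h and 24 h correlated at -0.06, so the likeness between the hours holds for the turned reading only. Why they differ was not tested. The next values are given by probe, and later gene values are means over all spots of a gene. Where its probes differ, a gene can therefore pass the rule although no single probe does. A gene with 1 probe has no second measurement.

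**Figure D1:**
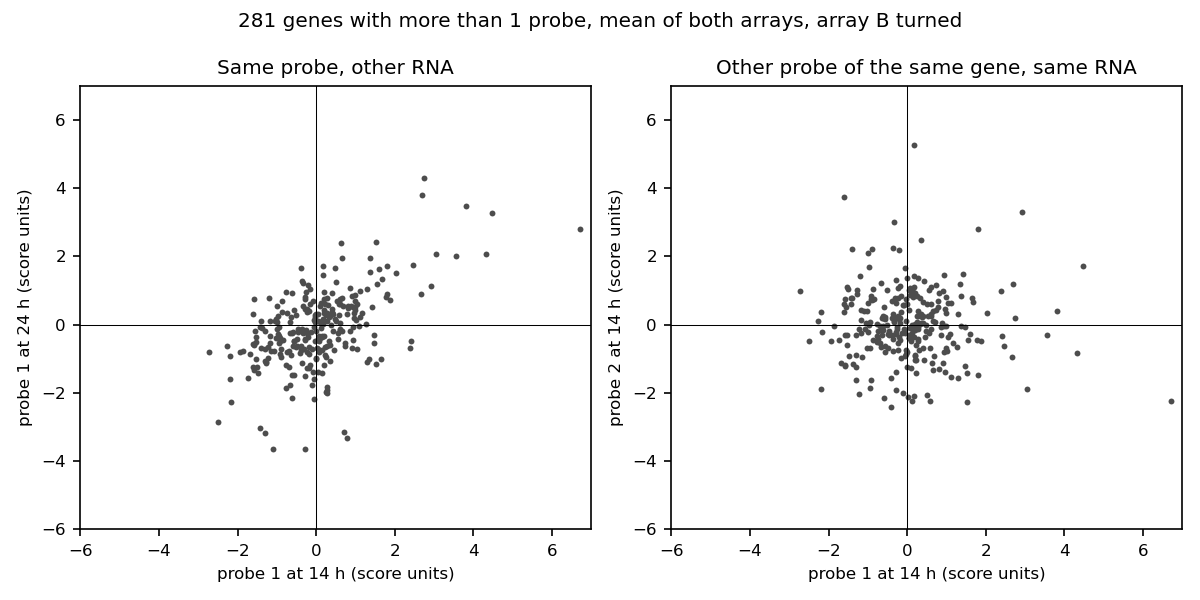
Mean scores of 281 genes with more than 1 probe, array B turned, in score units, with 1 point per gene. On the left the first probe at 14 h is set against that probe at 24 h (r = 0.55), and on the right the first probe against the second at 14 h (r = -0.04): the points follow a rising diagonal on the left and form a round cloud on the right.

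Of the 281 genes, 127 had all probe means on one side of 0, among them 118 of the 232 genes with exactly 2 probes. Taken one by one, 64 of their 664 probes (9.64%) passed the size rule on the higher side and 86 (12.95%) on the lower side. In 119 genes at least 1 probe passed, and in 9 every probe passed in one direction, with 3 higher and 6 lower. Unrelated probes would at times also fall on one side of 0 or pass together. How many such genes that would give was not tested, and the first 2 probes correlated at -0.04 across genes. TNNC1, the calcium-binding troponin C of slow and cardiac fibres, scored 2.93 and 3.29 on its 2 probes. Its 4 spots gave 1.91, 5.54, 5.88 and 4.44 on array A and 1.97, 2.32, 1.06 and 1.79 on array B turned, so all lay above 0. The tubulin deglutamylase gene AGBL5 scored 4.47 and 1.72, and SH3BP5L 1.81 and 2.80. CLDN5, a claudin of endothelial tight junctions, scored -2.20 and -1.90. Its 4 spots lay between -3.20 and -1.40 on array A and between -3.17 and -0.77 on array B turned. PRKAR1A, the regulatory subunit that holds protein kinase A inactive, scored -1.22 and -2.04. The lysosomal protease cathepsin B (CTSB) scored -1.68 and -1.13, and phospholemman (FXYD1), a regulator of the sodium pump, -1.58 and -1.22. The respiratory complex I subunit NDUFB7 scored -1.31 and -1.25, and the sorting nexin SNX21 -1.37 and -1.16. The probes of FXYD1 lie side by side on the array, so they are not measured at separate places. Its mean was -1.21 after centring each probe on the 20 rows around it, and -0.33 on 11 rows that include the probe. On the 20 rows the gene values of TNNC1, CLDN5 and FXYD1 still passed, while CTSB, NDUFB7 and SNX21 missed the rule. At 24 h the probe means kept their sign for TNNC1 (1.13 and 1.44), SH3BP5L (0.90 and 1.76) and CLDN5 (-1.58 and -1.74), but AGBL5 gave 3.27 and -0.16.

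Other repeat probes disagreed. In 90 of the 281 genes 1 probe passed the rule and no other did, and in 14 genes probes passed in both directions. The ribosomal protein gene RPL23A scored 6.72, -2.25 and 0.22 on its 3 probes. The myosin light chain gene MYL6 scored 3.05 and -1.90, and the transcription cofactor EDF1 -1.61 and 3.73. Muscle creatine kinase (CKM), with 11 probes, lay between -2.29 and 1.50. Of the 11 probes of titin (TTN), 9 lay below 0, with a range from -1.22 to 1.33. One of 6 probes of fast troponin I (TNNI2) scored 3.57, and the others lay between -0.29 and 0.66. One of 4 probes of the glycolytic aldolase ALDOA scored 3.02, and the others lay between -0.33 and 0.11. These genes were picked after their values were seen.

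The highest genes were led by single probes with large scores on array A. GPC1, a heparan sulfate proteoglycan of the cell surface, scored 6.37 on array A and 2.94 on array B turned. ROMO1, a protein of the inner mitochondrial membrane linked to reactive oxygen, scored 7.19 and 2.10. RPS16, a protein of the small ribosomal subunit, scored 5.66 and 3.47, and AP2S1, a subunit of the clathrin adaptor of endocytosis, 6.23 and 2.85. The ATPase TOR1A of the endoplasmic reticulum scored 7.41 and 1.60, HBA2 7.25 and 1.66, and the dynein regulator PAFAH1B1 6.69 and 2.06. After ABTB2 (5.71 and 1.45) came ZFAND2A, which binds the proteasome under stress, at 6.37 and 0.69. At the low end YIPF3, a Golgi membrane protein, scored -7.50 and -1.83. ELOF1, a factor of transcription elongation, scored -7.50 and -1.35, and the SNARE protein VAMP5 -5.66 and -0.50. In all these genes array B gave a smaller size than array A. Among all 581 genes past the rule, array A gave the larger size in 328.

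**Figure D2:**
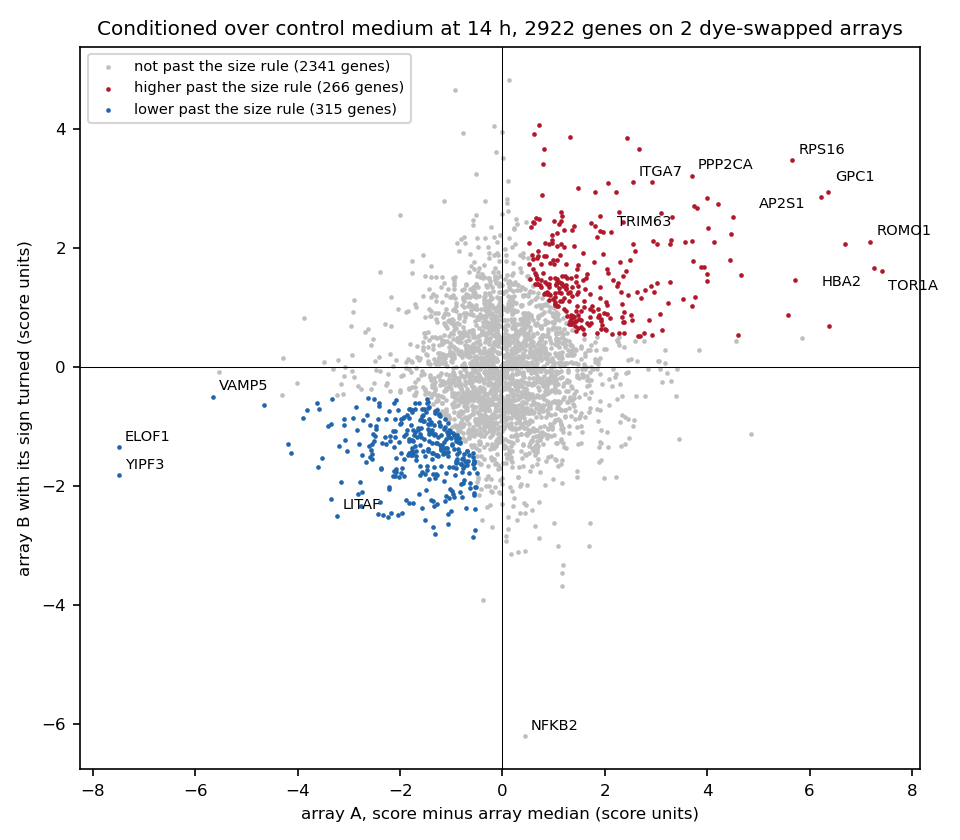
Score minus array median on array A (horizontal) and on array B with its sign turned (vertical), in score units, with 1 point per gene for 2922 genes and colours for the size rule. The 266 genes higher past the rule lie upper right and the 315 lower lie lower left, and TOR1A, HBA2, ROMO1, YIPF3 and ELOF1 lie far out on array A only, while NFKB2 lies far down on array B at -6.21 with 0.44 on array A.

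Ranking by the smaller of the 2 array values put other genes first. RPS16 and PPP2CA, the catalytic subunit of protein phosphatase 2A, led the higher genes. PPP2CA scored 3.70 and 3.21 (mean 3.45 ± 0.35), with spots of 2.74 and 4.65 on array A and of 2.05 and 4.37 on array B turned. UROS, an enzyme of heme synthesis, scored 2.91 and 3.11, and POFUT2, which adds fucose to secreted proteins, 2.67 and 3.66. TTC21B, a part of the transport machinery of cilia, scored 3.996 and 2.84, and the kinetochore protein CENPF 3.81 and 2.67. GCN1, which helps to activate the amino acid sensing kinase GCN2, scored 3.75 and 2.71. ARGLU1, an RNA-processing cofactor, scored 4.20 and 2.74. The arrays lay closer together at the low end. LITAF, a protein of late endosomes first described as a regulator of TNF, scored -3.24 and -2.51, with all 4 spots between -3.31 and -2.39. MZT2B, a subunit of the gamma-tubulin ring complex, scored -2.43 and -2.48, and SCN4A, the sodium channel of skeletal muscle, -2.76 and -2.35. The same held for AGAP3 (-2.34 and -2.50), the transcription factor GTF2I (-2.40 and -2.28), UACA (-2.24 and -2.52), LONRF1 (-3.35 and -2.23), the chromatin ATPase RUVBL1 (-2.17 and -2.47), the stimulatory G protein subunit GNAS (-2.83 and -2.14) and the RNA polymerase subunit POLR2F (-2.74 and -2.11). Where the arrays lay close together after turning, the mean as deposited was near 0, such as -0.36 for LITAF and 0.24 for PPP2CA.

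**Figure D3:**
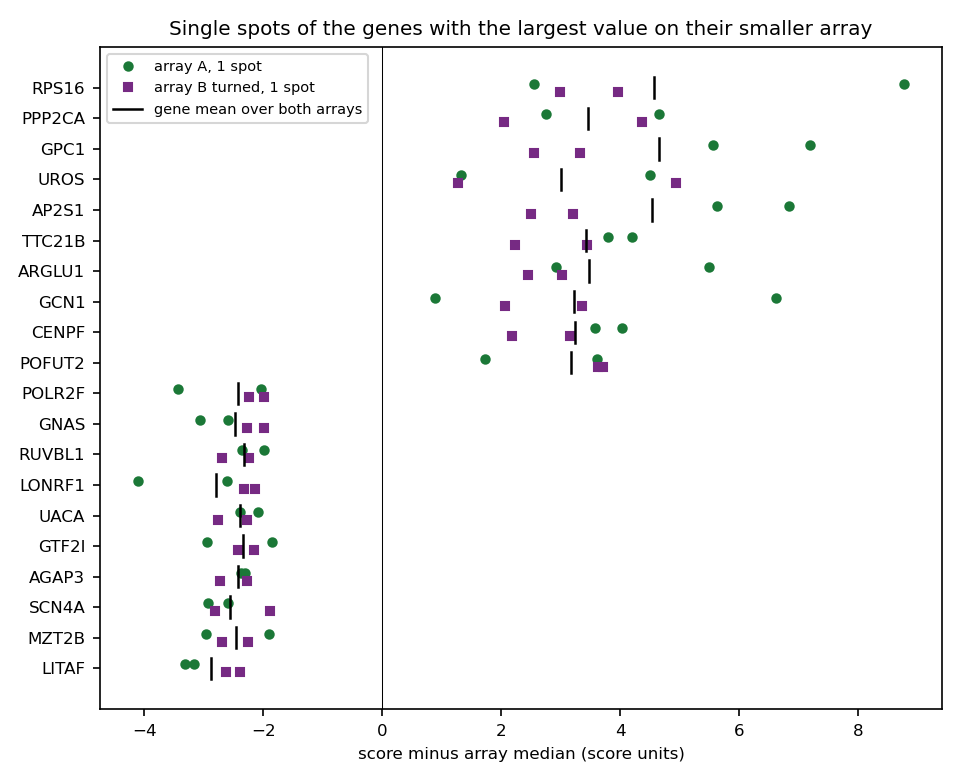
Score minus array median, in score units, of single spots of the 10 highest and 10 lowest genes by the smaller array value, with circles for array A, squares for array B turned and a bar for the gene mean. The low genes have tight spots, as in LITAF from -3.31 to -2.39, while RPS16 spreads from 2.56 to 8.76 and UROS from 1.27 to 4.94.

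Several leading genes sit beside each other on the array. The probes of ATP5PF, ROMO1, GPC1 and FBP2 follow each other and scored 1.34, 4.64, 4.65 and 2.33. Those of GCN1, PAFAH1B1, GLUL, LMNB1 and IMMT also follow each other and scored 3.23, 4.37, 3.81, 3.51 and 2.42. Another run holds CENPF, TTC21B, PPP2CA, SPTBN1 and KIFAP3, with 3.24, 3.42, 3.45, 1.27 and 3.11. AP2S1 (4.54) lies between the first probe of AGBL5 (4.47) and DYNLT1 (1.51). When each probe was centred on the 20 rows around it, leaving out its own, GPC1 kept 4.13, ROMO1 4.13, LMNB1 3.43 and LITAF -1.78, PPP2CA kept 1.18 and KIFAP3 0.84. The spectrin gene SPTBN1 then turned to -1.18. On the 11 rows that include the probe, LMNB1 gave 0.07, GCN1 0.03 and PPP2CA 0.51. The part of array position in these scores was not tested further.

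**Figure D4:**
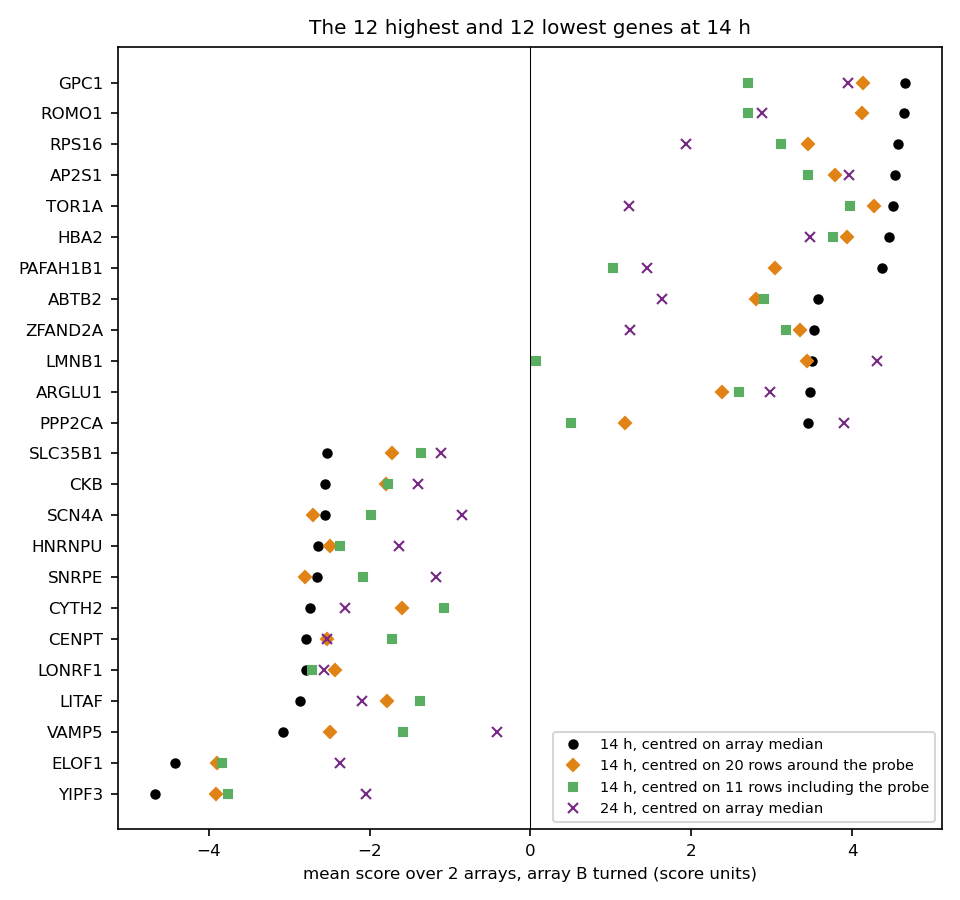
Mean scores, in score units with array B turned, of the 12 highest and 12 lowest genes at 14 h, after centring on the array median (circles), on 20 rows around the probe (diamonds) and on 11 rows (squares), beside the 24 h mean (crosses). All 24 genes keep their side of 0; PPP2CA drops from 3.45 to 1.18 on 20 rows and LMNB1 from 3.51 to 0.07 on 11 rows, while YIPF3 stays at -3.92 and -3.76.

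The comparison at 24 h shares no RNA with that at 14 h, though it shares the probes and their places. Across genes the 2 hours correlated at 0.53 with array B turned and at -0.06 as deposited (n = 2922). Of the 266 genes higher at 14 h, 209 had a mean above 0 at 24 h, and of the 315 lower genes 274 had a mean below 0. By the size rule 195 of the 581 passed in the same direction at 24 h, where 17.6% of all genes passed (7.94% higher and 9.69% lower), and 3 passed in the other direction. The 12 highest and 12 lowest genes all kept their sign at 24 h, as with GPC1 (3.95), AP2S1 (3.96), PPP2CA (3.90), LITAF (-2.09) and CENPT (-2.53), while VAMP5 gave -0.41. AGAP3 (0.53) and RUVBL1 (0.65), among the lowest genes by their smaller array, were on the other side of 0 at 24 h. Conditioned medium at 14 h over control at 0 h uses the same conditioned RNA with another control. There AP2S1 gave 1.57, LITAF -1.98, LONRF1 -2.34 and GTF2I -1.51, on their sides at 14 h, while GPC1 gave -0.63, ROMO1 -1.59, YIPF3 2.01 and CENPT 2.81.

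Read as deposited, another set of genes led. PRPF3, a protein of the spliceosome, scored 4.85 on array A and 1.13 on array B, with a mean of 2.99 ± 2.63. ID3, an inhibitor of myogenic factors, scored 3.44 and 1.21. WSCD1 scored 1.68 and 3.01, RNPEPL1 1.71 and 2.63, and the kinesin light chain gene KLC1 1.16 and 3.46. PAM16, a part of the mitochondrial import motor, scored 1.18 and 3.34. At the low end HBEGF, a growth factor that binds heparin, scored -0.77 and -3.92, and DUSP1, the early response phosphatase of MAP kinases, -2.89 and -1.12. The muscle form of the elongation factor EEF1A2 scored -2.40 and -1.60, and B4GAT1, which builds the matrix-binding sugar of dystroglycan, -1.998 and -2.55. FITM1, a protein of lipid droplet formation in muscle, scored -1.14 and -2.78. In the turned reading 0 of these passed the rule, by construction, and ID3 had a mean of 1.11 ± 3.29.

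The genes were then described by 37 lists that had measured members and hold 923 of the measured genes. The lists were written with earlier results of these data known, so their shares are a description and no independent support. Shares past the rule are to be read against 9.1% higher and 10.8% lower over all genes. The list with the largest share of members past the rule was that of TGF-beta, BMP and Wnt signalling, which also holds the Notch target HES1, with 8 of 9 past it, 2 higher and 6 lower. SMAD3, the transducer of TGF-beta and activin signals, scored -1.32 on array A and -2.81 on array B turned, with spots of -0.96 and -1.69 and of -2.90 and -2.71. SMAD1, which transduces BMP signals, scored -0.78 and -1.55. LTBP3, which holds latent TGF-beta in the matrix, scored -0.63 and -2.04. APC (-1.12 and -2.26) and AXIN1 (-0.68 and -1.58), both of the complex that degrades beta-catenin, and HES1 (-1.74 and -1.46) were lower too. DVL1, which relays Wnt signals from the receptor, scored 2.85 and 0.78, and the TGF-beta co-receptor ENG 1.29 and 0.71. The SMAD inhibitor SKI scored 1.76 and -0.05 and did not pass. The list median was -1.17, against -0.04 over all genes, and became 0.57 as deposited. There the 8 past the turned rule cannot pass, and SKI did not. After centring on the 20 rows around each probe the median was -1.05, but 4 of 9 passed, with 0 higher. DVL1 (0.89), ENG (0.15), AXIN1 (-0.97) and LTBP3 (-1.33, with array A alone short of its threshold) then missed the rule, while SMAD3, SMAD1, APC and HES1 passed. At 24 h the median was -0.43. Each of the 9 genes has 1 probe, and LTBP3, SMAD1 and SKI were named after their values were seen.

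Insulin and IGF signalling had 8 of 20 members past the rule, 5 higher and 3 lower, with a median of 0.33 and 0.06 as deposited. The growth factor IGF2 scored 1.39 and 2.36. Its binding proteins IGFBP2 (2.92 and 0.53), IGFBP6 (2.03 and 0.62) and IGFBP5 (1.58 and 0.64) were on the same side, while IGFBP3 (-0.52 and -0.68) and IGFBP4 (-0.75 and -0.60) did not pass. The receptor IGF2R, which clears IGF2, scored -1.76 and -0.73. Among the intracellular members TSC1, which restrains mTORC1, scored -2.08 and -1.55, and its partner TSC2 -2.41 and 0.16. The kinase GSK3A scored -0.55 and -2.16. EIF4EBP2, a repressor of cap-dependent translation, scored 1.05 and 1.38. AKT1 scored 0.95 and -0.06, IRS2 0.20 and 0.68, and FOXO3 0.10 and -0.003. After centring on 20 rows 5 members were higher and 3 lower, but they were not all the same genes. IGFBP2 and IGF2R then missed the rule, while IGFBP3 and RPS6KA1 passed. IGFBP5, EIF4EBP2 and RPS6KA1, and those that did not pass before this centring, were picked after their values were seen.

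Of 34 genes of ubiquitin conjugation 3 were higher and 4 lower, shares close to those of all genes, with a median of -0.03 and 0.27 as deposited. TRIM63, the MuRF1 ligase of muscle atrophy, scored 2.12 on array A and 2.26 on array B turned, with a mean of 2.19 ± 0.10. Its spots gave 3.48 and 0.76 on array A and 2.15 and 2.38 on array B turned, and its mean was -0.07 as deposited. It scored 2.95 at 24 h, -0.51 in conditioned medium at 14 h over control at 0 h, and 1.46 after centring on the 20 rows around it. FBXO32, the atrogin-1 ligase, scored -1.10 and -0.38, did not pass, and was named after its values were seen. RBX1, the RING subunit of cullin ligases, scored 0.68 and 1.49, and the deubiquitinase USP1 1.02 and 1.05. The ubiquitin-activating enzyme UBA1 scored -1.40 and -2.25, and the conjugating enzymes UBE2S and UBE2V2 -1.64 and -2.14, and -1.93 and -1.84. Of 22 proteasome genes, the assembly chaperone PSMG1 (0.74 and 1.73) and PSMD9 (1.34 and 0.72) were higher and the ubiquitin receptor PSMD4 (-1.21 and -1.39) lower. In lysosome, autophagy and calpain genes 2 of 26 were higher and 3 lower. The proton pump subunits split, with ATP6V0E1 at 1.48 and 2.996 and ATP6V0A1 at -1.43 and -1.25. The autophagy gene ATG16L1 scored 1.06 and 1.79, and the calpain inhibitor CAST -1.34 and -1.14.

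In sarcomere and Z-disc genes 6 of 49 were higher and 5 lower, with a median of -0.11 and -0.14 as deposited. Besides TNNC1, the light chain genes MYL2 (2.05 and 0.89) and MYL6B (1.22 and 1.52) were higher. The 2 probes of MYL2 scored 2.75 and 0.19, and its mean was 0.63 after centring on the 20 rows around each probe. The fast-fibre alpha-actinin ACTN3 scored -1.88 and -1.13, PDLIM1 -1.98 and -0.88, and the actin-binding repeat protein XIRP1 -1.82 and -0.87. In calcium handling and excitation ATP2A1, the calcium pump of fast fibres, scored 1.69 and 0.70 with all 4 spots above 0. Neither of its 2 probes passed by itself (0.68 and 1.19 on the first, 2.69 and 0.21 on the second). SCN4A and FXYD1 were the 2 lower members of 19. Of 10 genes of myogenic regulation IGF2 was higher. The cell cycle inhibitor CDKN1C (-1.93 and -1.56) and MUSTN1 (-1.59 and -0.88) were lower. Myogenic factor MYOD1 scored 0.12 and 1.44, its partner MEF2C -0.68 and -1.08, and 0 of 8 markers of myoblasts and muscle passed. As ratios hold no level, the presence of these markers in the cells could not be checked.

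Matrix and adhesion genes had 7 of 38 members higher and 2 lower, with a median of 0.03 and -0.17 as deposited. ITGA7, the laminin receptor chain of muscle, scored 2.54 and 3.10, and ITGB1BP2, or melusin, which binds the integrin beta chain in muscle, 1.73 and 2.41. At 24 h they gave 1.63 and 2.48. The basement membrane proteoglycan HSPG2 scored 1.75 and 1.01. On the lower side stood fibronectin (FN1, -0.99 and -1.30) and beta-sarcoglycan (SGCB, -2.51 and -1.25), which gave 1.02 and 0.19 at 24 h. Centring on the 20 rows around the probe moved SGCB to -0.59 and ITGA7 to 3.40.

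In glycolysis and glycogen metabolism 4 of 21 genes were higher and 0 lower, with a median of 0.26 and 0.10 as deposited, where 0 passed. After centring on 20 rows 1 was higher and 1 lower. FBP2, the muscle fructose-bisphosphatase, scored 3.52 and 1.13 and phosphoglycerate kinase PGK1 3.08 and 0.88. Muscle glycogen synthase GYS1 scored 1.27 and 1.23, and ALDOC 1.59 and 0.54. At 24 h GYS1 gave -0.01. Among 17 TCA cycle and pyruvate dehydrogenase genes, IDH3B and the succinyl-CoA ligase subunit SUCLG1 (0.70 and 1.94) were higher. The 2 probes of IDH3B scored 0.18 and 5.27. Oxidative phosphorylation had 4 of 74 members higher and 6 lower. The higher ones included COX8A (2.04 and 1.04), UQCRH (1.06 and 1.47) and ATP5PF (0.93 and 1.75). The lower ones included cytochrome c (CYCS, -1.27 and -1.82), NDUFB3 (-1.86 and -1.06) and NDUFB7. After centring on 20 rows 9 members were higher and 6 lower. COX8A, UQCRH and NDUFB3 still passed, while ATP5PF, CYCS and NDUFB7 missed the rule. Neither of the 2 probes of UQCRH passed by itself (0.17 and 2.52 on the first, 1.96 and 0.42 on the second). COX8A (-1.35) and UQCRH (-0.49) were below 0 at 24 h. In fatty acid metabolism 4 of 22 were higher and 1 lower, and 2 passed on either side after centring on 20 rows. The fatty acid transporter CD36 scored 0.67 and 1.39 and the carnitine carrier SLC25A20 0.83 and 1.24. The beta-oxidation genes split, with ECHS1 at 1.93 and 0.63 and HADHB, of the trifunctional protein, at -1.38 and -1.56. Brain creatine kinase (CKB), which myoblasts express before the muscle form, scored -3.16 and -1.94, the mitochondrial form CKMT2 -1.33 and -0.78, and AMP deaminase AMPD1 -0.56 and -2.13. Spermine synthase SMS scored 3.70 and 2.11. Glutamine synthetase (GLUL) had 1 probe at 0.40 and 1 at 3.81.

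Translation factors had 1 of 37 members higher and 6 lower, with a median of -0.40 and -0.25 as deposited. The cap-complex helicase EIF4A1 scored -3.34 and -0.97. In eIF3, the complex that joins the mRNA to the small ribosomal subunit, EIF3A (-2.36 and -1.28), EIF3B (-1.67 and -1.19), EIF3C (-1.43 and -1.89) and EIF3D (-1.57 and -0.71) were lower. Its subunits EIF3F (0.92 and 0.93), EIF3L (0.33 and 0.29), EIF3E (1.95 and -0.30), EIF3G (-0.11 and -0.63), EIF3H (0.51 and -0.54) and EIF3K (0.08 and 0.22) did not pass. The elongation factor EEF1G scored -2.42 and -0.66, and EEF2, which moves the ribosome along the mRNA, 1.16 and 1.51. EEF2 stayed positive at 24 h (2.40) and over 0 h (2.05). The subunits that did not pass were named after their values were seen, as was EEF1G. Centring on the 20 rows around each probe left 2 members of the list higher and 4 lower. EIF3A, EIF3C, EEF1G and EEF2 still passed, and EIF3F and GSPT1 passed as well. EIF3B (-0.82), EIF3D (-0.95) and EIF4A1 (-0.96) then missed the rule.

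Ribosomal protein genes went both ways. In the large subunit 2 of 40 were higher and 3 lower, with RPL35A at 0.90 and 2.06 and RPL6 at -2.57 and -1.40, and 1 passed on either side after centring on 20 rows. In the small subunit 4 of 24 were higher and 2 lower. FAU scored 1.14 and 2.60, RPS12 2.37 and 0.56, and RPS24 -1.76 and -1.38. Mitochondrial ribosome and import genes had 4 of 64 members higher and 8 lower. MRPL4 scored 4.003 and 1.55, the outer membrane channel VDAC3 -1.60 and -1.68 and prohibitin PHB2 -1.04 and -2.21. Splicing and RNA-binding genes had 4 of 65 higher and 10 lower. Besides ARGLU1, the core spliceosome protein PRPF8 (2.35 and 1.52) and SRSF11 (1.57 and 1.45) were higher. SNRPE (-4.65 and -0.65), HNRNPU (-3.60 and -1.68) and HNRNPA0 (-2.55 and -1.29) were lower.

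Chaperone and folding genes had 5 of 44 higher and 7 lower, with a median of -0.16 and -0.07 as deposited. The split became 7 higher and 2 lower after centring on 20 rows. The chaperonin subunit CCT3 scored 3.31 and 2.52, DNAJC7 1.91 and 2.53, and FKBP1A, which also binds the calcium release channel, 1.10 and 2.40. The heat shock partners DNAJB1 (-2.12 and -1.34) and DNAJB6 (-1.28 and -2.31) and the endoplasmic reticulum chaperone HSP90B1 (-1.85 and -1.48) were lower. ATF4, the transcription factor of the integrated stress response, scored -1.61 and -1.82 and was the lower one of 21 early response and MAP kinase genes, whose higher one was IER5 (2.41 and 1.60). In antioxidant and redox genes 5 of 28 were higher and 3 lower. SELENOM scored 3.57 and 2.09, but 0.45 after centring on the 20 rows around it, and CYBA, an NADPH oxidase subunit, 1.11 and 1.42. Selenoprotein W (SELENOW, -2.85 and -1.07), PRDX6 (-1.61 and -1.14) and metallothionein MT2A (-0.65 and -1.79) were lower.

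Cytokine and NF-kB genes had 3 of 20 higher and 4 lower, with a median of -0.08 and 0.12 as deposited. Centring on 20 rows left 2 on either side. S100A8, an alarmin of myeloid cells, scored 1.90 and 2.27, and the cytokine MIF 2.04 and 1.64. BCL2A1, a survival protein switched on by NF-kB, scored 0.97 and 2.21 and gave 3.61 at 24 h. The interferon-induced genes ISG15 (-1.83 and -1.22) and IFITM1 (-2.14 and -1.08) were lower and gave -0.95 and -1.54 at 24 h. The members that passed on the 20 rows were S100A8, IFITM1, LITAF and CEBPD, while MIF, BCL2A1 and ISG15 missed the rule. The NF-kB subunit gene NFKB2, named after its values were seen, scored 0.44 on array A and -6.21 on array B turned and did not pass. Among genes of cell death DAXX scored 3.27 and 1.41.

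Microtubule and motor genes had 5 of 30 higher and 1 lower, with a median of 0.28 and -0.03 as deposited. KIFAP3, which links kinesin-2 to its cargo, scored 4.14 and 2.09, the minus-end motor KIFC3 1.19 and 1.36, the dynein light chain DYNLL1 1.86 and 0.83, and STMN1, which destabilises microtubules, 0.87 and 1.23. PAFAH1B1 and KIFAP3 belong to the runs of neighbouring probes described above. After centring on 20 rows 4 members of this list were higher and 1 lower. STMN1 and MZT2B then passed, while PAFAH1B1, KIFAP3, KIFC3 and DYNLL1 missed the rule. The actin list had 1 of 25 members higher, SPTBN1, and 3 lower, with ANK1 at -3.58 and -0.71, ARPC2 at -0.91 and -1.20 and TAGLN at -1.02 and -1.09. The 2 probes of ARPC2 scored 0.02 and -2.12. After centring on 20 rows 0 actin members were higher and 3 lower, and SPTBN1, ANK1, ARPC2 and TAGLN were not among them. Vesicle traffic genes had 9 of 74 higher and 8 lower, and 5 on either side after centring on 20 rows. Besides AP2S1, the GTPases ARF1 (3.11 and 0.61) and RAB40B (1.39 and 2.03) were higher. The ARF exchange factor CYTH2 (-4.19 and -1.31), VAMP5 and YIPF3 were lower. Apart from PPP2CA, in the cell cycle list CENPT, which anchors the kinetochore, scored -4.12 and -1.45. In the chromatin list, LMNB1, the lamin of dividing cells, scored 4.49 and 2.52, and the acetyltransferase KAT2A -2.54 and -1.47.

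**Figure D5:**
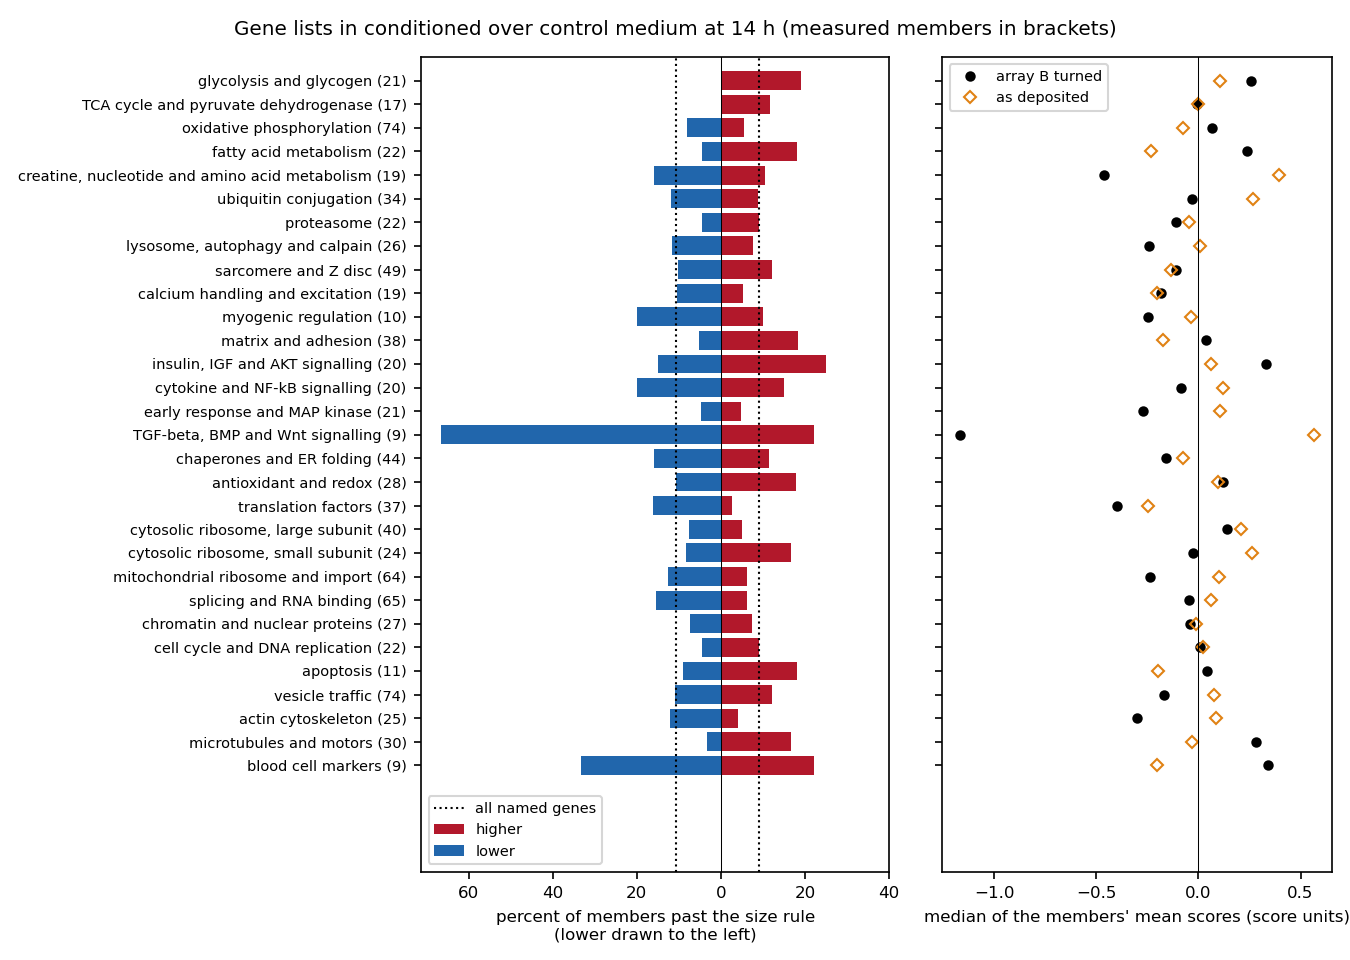
Gene lists with at least 9 measured members: on the left the percent of members past the size rule, higher in red to the right and lower in blue to the left, with dotted lines at 9.1% and 10.8% for all named genes; on the right the list median in score units with array B turned (circles) and as deposited (diamonds). The TGF-beta, BMP and Wnt list reaches farthest, with 6 of 9 members lower and medians of -1.17 and 0.57 in the 2 readings. All lists were written with earlier results of these data known.

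Markers of other cell types were measured in the same way. Of 9 blood cell markers 2 were higher and 3 lower. After centring on the 20 rows around each probe 3 were higher and 1 lower. HBA2, an alpha globin, scored 7.25 and 1.66, while its near-identical copy HBA1 scored 0.04 and 0.64 and the beta globin HBB -1.60 and -1.19. On the 20 rows HBA1 (1.13) passed on the higher side with HBA2 (3.93), and HBB (-1.41) still passed. At 24 h HBA2 gave 3.48 and HBA1 -1.25. The leukocyte tetraspanin CD37 scored 4.01 and 2.34. The MHC class II genes HLA-DRB1 (-1.69 and -1.42) and HLA-DPA1 (-2.19 and -1.16) were lower, but HLA-DRA scored 0.16 and 1.16, HLA-DPB1 -0.03 and 0.87 and HLA-DQB1 0.19 and 0.22. On the 20 rows HLA-DRB1 (-0.39) missed the rule, as did the blood cell marker LYZ (-0.44), while HLA-DPA1 gave -1.39. In other families of similar copies, the tubulin gene TUBB scored -1.53 and -1.22 and TUBB4B -1.76 and -0.35, and the actin genes ACTC1 -4.29 and 0.14 and ACTG1 0.04 and 1.47. Of 3 endothelial markers CLDN5 was lower, ENG higher and VWF (0.38 and 0.34) not past the rule. Of 7 fibroblast and smooth muscle markers 0 were higher and 2 lower, S100A4 (-0.57 and -2.86) and TAGLN. Both epithelial markers measured, S100P (-0.17 and -0.40) and SPINT2 (-1.06 and 0.77), missed the rule, as did all 4 adipocyte markers and the glial S100B (-2.21 and -0.40). The part of other cells in the results was not tested.

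Promoters of the mouse genes were searched for 7 short motifs. RefSeq promoters of build GRCm38.p6, from 250 bases before to 50 after the start of the gene, were matched by symbol to 2246 of the 2922 genes, of which 207 were higher and 232 lower past the rule. The cyclic AMP response element, the 8 letters TGACGTCA, lay in 12 promoters of the higher genes (5.80%) and in 4 of the lower genes (1.72%). It lay in 77 of the 2246 measured genes (3.43%) and in 507 of all 27025 promoters of the table (1.88%). Each motif was searched on both strands, and a match is only these letters, not a shown binding site. The higher genes with a match were ZFAND2A, PPP2CA, TTC1, FAU, MIF, DVL1, TRA2A, EEF2, ZFYVE27, NOC4L, NAPA and XAB2, and the lower ones CYCS, GLOD4, CMSS1 and TESK1, all named for the match. The myogenic E-box CAGCTG was in 15.5% of the higher, 12.5% of the lower and 14.0% of all measured genes. AP-1 (TGANTCA) was in 7.25%, 4.74% and 5.21%, forkhead (GTAAACA) in 2.90%, 3.45% and 2.23%, and the NF-kB motif in 1.45%, 1.29% and 1.47%. The TATA box (TATAAA) was in 5.80%, 8.19% and 7.93%, and CCAAT in 41.1%, 43.5% and 39.4%. Of all promoters in the table, 16.1%, 7.93%, 3.55%, 1.62%, 14.2% and 37.9% held these 6 motifs in that order. The 3 higher genes with the largest means among those with a cyclic AMP response element, cytochrome c from the lower genes and TRIM63 are printed here to show where the matches lie. All are given 5′ to 3′ on the strand of the gene, and capitals mark every match to 1 of the 7 motifs on either strand.
Zfand2a, chr5:139484442-139484741, minus strand: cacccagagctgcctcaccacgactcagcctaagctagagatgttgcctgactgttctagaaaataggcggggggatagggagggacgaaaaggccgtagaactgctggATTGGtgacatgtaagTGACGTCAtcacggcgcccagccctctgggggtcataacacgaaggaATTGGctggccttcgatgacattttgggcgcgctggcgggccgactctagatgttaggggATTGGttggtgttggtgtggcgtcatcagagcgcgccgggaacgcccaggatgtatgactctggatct
Ppp2ca, chr11:52098574-52098873, plus strand: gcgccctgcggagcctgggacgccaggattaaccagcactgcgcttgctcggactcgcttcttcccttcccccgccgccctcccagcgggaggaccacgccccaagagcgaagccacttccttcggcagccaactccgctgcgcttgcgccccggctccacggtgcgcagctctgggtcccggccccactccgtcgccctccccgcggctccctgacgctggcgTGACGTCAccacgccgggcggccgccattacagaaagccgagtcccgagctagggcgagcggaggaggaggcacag
Ttc1, chr11:43747959-43748258, minus strand: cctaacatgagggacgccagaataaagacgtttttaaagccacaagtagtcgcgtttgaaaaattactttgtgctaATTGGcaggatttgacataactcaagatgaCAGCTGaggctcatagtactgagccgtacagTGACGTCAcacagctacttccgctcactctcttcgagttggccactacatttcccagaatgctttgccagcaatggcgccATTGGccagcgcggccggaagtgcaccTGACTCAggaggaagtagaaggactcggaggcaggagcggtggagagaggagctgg
Cycs, chr6:50566520-50566819, minus strand: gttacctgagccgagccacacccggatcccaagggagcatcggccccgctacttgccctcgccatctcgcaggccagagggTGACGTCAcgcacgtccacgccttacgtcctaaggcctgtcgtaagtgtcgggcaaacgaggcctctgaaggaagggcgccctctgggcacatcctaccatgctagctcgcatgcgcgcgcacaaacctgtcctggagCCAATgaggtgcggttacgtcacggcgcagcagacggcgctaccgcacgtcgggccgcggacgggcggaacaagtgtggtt
Trim63, chr4:134314870-134315169, plus strand: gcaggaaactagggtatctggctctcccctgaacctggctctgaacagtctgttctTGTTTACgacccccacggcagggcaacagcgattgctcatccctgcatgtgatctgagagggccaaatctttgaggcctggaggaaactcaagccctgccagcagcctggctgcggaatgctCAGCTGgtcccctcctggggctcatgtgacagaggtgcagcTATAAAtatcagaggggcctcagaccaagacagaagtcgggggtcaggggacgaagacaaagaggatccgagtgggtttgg
ZFAND2A has its cyclic AMP response element and 3 matches to CCAAT, read on the other strand. In PPP2CA that element is the only match. TTC1, a tetratricopeptide repeat protein, scored 2.50 and 1.80 (0.22 at 24 h) and has 5 matches. TRIM63 has a forkhead match on the other strand, an E-box and a TATA box. The forkhead letters were no more frequent among the higher genes than among the lower ones.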

How the data were processed

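RNA of C2C12 cells was measured on 8 two-colour arrays, and 2 dye-swapped arrays of 1 RNA pair (MBC14 over MBN14) were described here. The deposited values are signed scores, 1 per spot and array; background correction, normalisation, log base and direction are not given in the sources used here. Scanner intensities were not used here, so signal over background is unknown and no dim spot was left out. The precision is limited by the number of arrays. The median of each array was subtracted. Genes come from the platform's annotation (2016), which gives 1 gene for 6610 spots and several for 106 and leaves 3268 unnamed here. Averaging over spots gave 2922 genes. The size rule, the gene means and the counts were computed in Python 3.11.15 with pandas 2.3.3, numpy 2.4.6 and matplotlib 3.10.9, and were tested on simulated data. The arrays were counted as 1 replicate, so no test was run.

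Named genes are the 12 highest and 12 lowest past the size rule, 10 each way by the smaller array value, 8 each way as deposited, up to 8 each way with at least 4 spots on one side of 0, at most 6 per list (the 2 largest where none passed), and copies of gene families. The members and lists were chosen with earlier results of these data known. Alternatives were other centrings, scalings, spot summaries, thresholds, a dye term and single arrays. Promoters were matched by upper-case symbol to RefSeq GRCm38.p6.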

Additional observations from a re-analysis of the deposited data

Results flagged for a closer look

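In 3 genes every array went one way at 14 h and the other way at 24 h, past the size rule at both hours with array B turned. The difference between the hours was not tested, since each hour has 1 RNA pair. ECI2, an enzyme of the breakdown of unsaturated fatty acids, scored 1.45 at 14 h (0.56 on array A and 2.35 on array B turned) and -1.52 at 24 h (-1.49 and -1.54). EIF3A, the largest subunit of the initiation factor eIF3, scored -1.82 at 14 h (-2.36 and -1.28) and 1.78 at 24 h (0.75 and 2.81). OXSM, an enzyme of mitochondrial fatty acid synthesis, scored 1.13 at 14 h (0.87 and 1.39) and -1.53 at 24 h (-2.54 and -0.52). Each of these genes has 1 probe, and as deposited their 14 h means were -0.89, -0.54 and -0.26.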

How the results depend on the processing

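The count of 581 genes past the size rule was 484 after centring on 51 rows, 511 on the 20 rows around each probe (chosen after seeing the data) and 366 on 11 rows. It was 585 without centring, 586 with arrays scaled to one SD, 576 with the median over spots, 499 with spots sharing their sign only and 520 with a dye term per gene. Thresholds of 0.5 on the mean and 0.25 on each array gave 1082, thresholds of 2 and 1 gave 104, and a mean of 1 with one sign on both arrays 684. Leaving out either array gave 994 and 1006, since the rule then reads 1 array alone. As deposited 186 passed, which became 11 at thresholds of 2 and 1. Of the 24 genes with the largest means, 14 passed after centring on 11 rows, 19 on 20 rows and 21 on 51 rows. By construction, 0 of the 24 passed as deposited. The number of lists with a median above 0 was 14 of 37 and lay between 11 and 20 under the alternatives, with 20 under each centring on rows. No paired analysis was possible because the array letters mark dye swaps of 1 RNA pair and no test was made.

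Of the 171 named genes past the size rule, 62 changed sign as deposited. 30 had been lower and scored AGAP3 0.078, AMPD1 0.78, APC 0.57, ARPC2 0.14, ATF4 0.10, AXIN1 0.45, CYCS 0.27, DNAJB6 0.51, EIF3C 0.23, FBL 0.54, FN1 0.15, GSK3A 0.80, HADHB 0.086, MRPL11 0.34, MT2A 0.57, MZT2B 0.022, NDUFB7 0.49, PHB2 0.58, PSMD4 0.091, RPL41 0.22, RPL7 0.79, RPS2 0.15, RUVBL1 0.15, S100A4 1.14, SMAD3 0.74, TAGLN 0.033, UACA 0.14, UBA1 0.42, UBE2S 0.25, VDAC3 0.037. 32 had been higher and scored ATG16L1 -0.36, ATP5PF -0.41, ATP6V0E1 -0.76, BCL2A1 -0.62, CD36 -0.36, CYBA -0.15, DNAJC7 -0.31, ECI2 -0.89, EEF2 -0.18, FAU -0.73, FKBP1A -0.65, H1-2 -0.62, IGF2 -0.48, ITGA7 -0.28, ITGB1BP2 -0.34, KIFC3 -0.083, MYL6B -0.15, POFUT2 -0.50, PSMG1 -0.49, RAB40B -0.32, RBX1 -0.41, RPL35A -0.58, RPS29 -0.17, S100A8 -0.19, SLC25A20 -0.21, SPTBN1 -0.13, STMN1 -0.18, SUCLG1 -0.62, TRIM63 -0.074, UQCRH -0.20, UROS -0.097, USP1 -0.015. SPTBN1 also turned after centring on 11 rows (-1.51) and on 20 rows (-1.18). None of the others of the 171 turned under the centrings, without centring or with the median over spots, which for 2 spots equals their mean. Scaling and single arrays could turn no gene, since the rule puts both arrays on one side of 0. Keeping spots that share their sign drops genes and leaves the other means unchanged. Named genes that missed the rule are not counted here, and some of them turned too. By construction, a gene past the turned rule changes sign as deposited where array B is larger in size than array A. Why array B was larger in those genes, and why SPTBN1 turned under the centrings, was not tested.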

Other observations

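The probes that list no gene here had more scores past the size rule than the named ones. Of 1634 such probes 331 were higher and 134 lower in the turned reading, or 28.5%, with means from -3.38 to 4.36. Of 3305 probes that list 1 gene 314 were higher and 382 lower, or 21.1%, and of 53 probes that list several genes 4 were higher and 1 lower, or 9.43%. The 3 classes share the arrays and the centring, and what the unnamed probes hold was not examined.

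Genes with at least 4 spots that all lay on one side of 0 on both arrays numbered 7 above and 11 below, of 281. Beside those already described, MACROH2A1, a histone variant of silent chromatin, scored 1.38 on array A and 0.85 on array B turned. It gave 1.38 at 24 h and 1.75 in conditioned medium at 14 h over control at 0 h. CA3, the carbonic anhydrase of slow muscle, scored 0.84 and 1.05 and missed the size rule, as did the stress protein gene NIBAN1 (1.18 and 0.47). The membrane protein gene CD99L2 scored -1.62 and -1.32 and the mitochondrial ribosomal protein gene MRPS7 -1.71 and -0.72. In CD99L2 the first probe gave -0.14 on array A and -2.47 on array B turned, and the second -3.09 and -0.18. Neither passed the rule by itself. The probes of MRPS7 had means of -1.95 and -0.48.

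Of 6 genes of the response to low oxygen and of vessel growth 1 was higher and 1 lower. NRP1, a receptor of VEGF and semaphorins with 1 probe, scored 2.33 on array A and 1.05 on array B turned, with -0.95 at 24 h. DDIT4, an inhibitor of mTORC1 that responds to stress, scored -1.14 and -1.06, with -1.04 at 24 h, and its 2 probes gave -1.75 and -0.45.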
